A study of Mus musculus with 4 samples.

Results

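Thy1, Tcf7, Gzmb, Cd244, Lck and Cd4 are 6 genes known for their roles in T cells and natural killer (NK) cells, here examined in a mouse myeloid leukaemia driven by the MLL-AF9 fusion. They were chosen by symbol, with the EtOH and OHT values of these same libraries in view, so their own differences are given as a description without a test. Of the 6, 5 had a row among the 18061 transcripts of the deposited table, 1 row each: Thy1 (NM_009382), Tcf7 (NM_009331), Gzmb (NM_013542), Cd244 (NM_018729) and Cd4 (NM_013488). Lck was not analysed here. Of the 5, 4 had more than 3 reads in a group, and Cd4 did not.

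The leukaemic cells came from bone marrow of C57BL/6 mice and were grown in liquid culture. Both groups shared the genotype Ring1a-/-;Ring1bf/f Cdkn2a-/- and the MLL-AF9 fusion. In 2 samples the cells received EtOH (ethanol, the solvent control) for 72 h and in 2 samples OHT (hydroxytamoxifen in common usage, a ligand that activates recombinases used to delete floxed alleles) for 72 h. The series title asks whether activity of Polycomb repressive complex 1 (PRC1) keeps leukaemic cells in their identity, and Ring1a and Ring1b are its ubiquitin ligase subunits. Neither the recombinase nor the number of founding clones is named in the labels, nor is it stated that the samples are separate cultures or animals, so p-values measure only a spread between samples that may be technical. Both groups lack Ring1a and Cdkn2a, and an OHT control with intact Ring1b was not analysed here, so effects of OHT itself and of Ring1b loss cannot be told apart.

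T cells arise from marrow progenitors that enter the thymus, where Notch signals switch on Tcf7, which encodes the transcription factor TCF-1, an early driver of the T-cell programme. Mature T cells carry the CD3 complex and the co-receptor CD4 or CD8, and the kinase LCK starts signalling from them, while NK cells lack CD3 and kill with perforin and granzymes. None of the measured members is exclusive to lymphocytes in mice. Thy1 is also made by neurons and fibroblasts, Gzmb by mast cells, and Cd244, a receptor of the SLAM family, by early blood progenitors.

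The deposited table gives 1 mean of normalised reads per group. Each mean could be solved into whole reads of its 2 libraries, called A and B here, with totals of 6255320 and 3841243 reads for EtOH and 5687967 and 4509718 for OHT. In each group A is the deeper library and B the shallower. The letters are tied to no replicate number, and A of one group is not paired with A of the other. Values of a gene per library below are reads with 1 read added, divided by the library's size factor, the form whose group means equal the deposited ones, while sums over marker lists are without the added read. Pearson's r of these values on the log2 scale was 0.94 between the EtOH libraries and 0.97 between the OHT libraries over 7894 transcripts with means of at least 50, and 0.83 to 0.92 across the groups. Rnf2, which encodes Ring1b, had 828 and 448 reads with EtOH and 852 and 714 with OHT. Since the deleted exons are not named, reads over the whole gene do not check the deletion.

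The sequences before the transcription starts of the members differ in their content of CpG, the dinucleotide at which PRC1 and other Polycomb complexes are known to gather in CpG islands. They are shown because that difference divides Tcf7 from the other members with an entry in the RefSeq promoter table (build GRCm38.p6, whereas the reads were aligned to mm9 per the submitters' processing notes). Each is the run of 250 bases before an annotated start, 5′ to 3′ on the gene's strand, with every CpG in capitals.
Tcf7, chr11:52282596-52282845, minus strand: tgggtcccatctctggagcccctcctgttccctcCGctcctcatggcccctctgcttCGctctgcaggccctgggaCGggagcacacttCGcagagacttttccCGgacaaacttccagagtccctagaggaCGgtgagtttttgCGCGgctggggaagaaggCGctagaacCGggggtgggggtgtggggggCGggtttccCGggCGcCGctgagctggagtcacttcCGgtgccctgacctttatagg
Gzmb, chr14:56262335-56262584, minus strand: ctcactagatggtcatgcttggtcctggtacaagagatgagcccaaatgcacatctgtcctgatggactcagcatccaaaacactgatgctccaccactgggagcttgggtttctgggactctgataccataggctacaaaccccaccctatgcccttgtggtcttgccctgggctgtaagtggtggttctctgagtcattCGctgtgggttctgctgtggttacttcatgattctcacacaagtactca
Cd244, chr1:171558943-171559192, plus strand: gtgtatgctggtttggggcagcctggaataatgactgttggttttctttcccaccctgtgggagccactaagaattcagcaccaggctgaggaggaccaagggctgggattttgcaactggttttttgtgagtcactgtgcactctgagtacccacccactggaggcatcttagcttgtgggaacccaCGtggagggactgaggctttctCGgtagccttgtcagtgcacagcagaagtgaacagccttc
The Tcf7 window held 15 CpG, a number reached or passed by 27.3% of the 32851 promoter windows of the table, whose median was 6. It lies at the start nearest to that of NM_009331, 24 bases from the GENCODE start, and a second Tcf7 start further upstream had 37 CpG in its window, a number that 2.20% of windows reached or passed. The printed Tcf7 window lies downstream of that second start, so its bases can be part of a longer Tcf7 transcript. How many CpG of either window fall in exons was not examined. The Gzmb window held 1 CpG and the Cd244 window 2, numbers that 92.1% and 81.2% of windows reached or passed. The Gzmb start is 74 bases upstream of the GENCODE start.

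Letters of 4 motifs were searched on both strands of these windows: TGTGGT for RUNX factors, CTTTGA for TCF factors, AGATAA for GATA factors and TGANTCA for AP-1. The Gzmb window held 2 RUNX matches, beginning 93 and 34 bases before the start, and 1 AP-1 match at 58 bases, none of them overlapping. Over all windows, 14.0% held a RUNX match and 6.75% an AP-1 match. The Cd244 window held 1 AP-1 match, 122 bases before the start. Both Tcf7 windows held none of the 4, whose TCF and GATA letters occurred in 13.8% and 9.99% of all windows. A match is a run of letters and not a bound site.

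Thy1 encodes a small surface glycoprotein anchored in the membrane by a lipid, a classic marker of mouse T cells. Its normalised reads were 26.5 and 18.2 in EtOH libraries A and B and 234 and 482 in OHT libraries A and B. Both OHT libraries lay far above both EtOH libraries, and the lower OHT library was 8.83-fold above the higher EtOH library. The means were 22.4 ± 5.87 (SD, n = 2) with EtOH and 358 ± 175 (SD, n = 2) with OHT, a ratio of 16.0 in the authors' deposited table. The 4 ratios of an OHT to an EtOH library ran from 8.83 to 26.5. Limma-voom on the solved reads, which pools the spread over transcripts, gave a log2 fold change of 3.90 ± 0.54 (SE). In this bulk RNA, a change in the number of cells that make a transcript and a change in its amount per cell cannot be told apart, here or for any gene below.

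Tcf7 had the closest libraries of the members above the floor of 3 reads. Its normalised reads were 24.0 and 32.6 in EtOH libraries A and B and 91.5 and 140 in OHT libraries A and B. Every OHT library exceeded every EtOH library, by 2.81-fold to 5.80-fold. The means were 28.3 ± 6.01 (SD, n = 2) with EtOH and 116 ± 33.9 (SD, n = 2) with OHT, a ratio of 4.08 in the authors' deposited table, and limma-voom gave a log2 fold change of 2.04 ± 0.42 (SE). Between the EtOH libraries the read ratio was 1.35 (B over A), with an exact 95% counting interval of 0.747 to 2.41, so these libraries differed by no more than counting error allows. Between the OHT libraries it was 1.53 (1.17 to 1.99).

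Gzmb encodes granzyme B, the serine protease that killer lymphocytes deliver into target cells. Its normalised reads were 78.0 and 15.6 in EtOH libraries A and B and 209 and 866 in OHT libraries A and B. Both OHT libraries stood above both EtOH libraries, but the members of each group lay far apart, and the order of A and B was opposite in the 2 groups. The means were 46.8 ± 44.1 (SD, n = 2) and 538 ± 465 (SD, n = 2), a ratio of 11.5 in the authors' deposited table. The ratio of an OHT to an EtOH library ran from 2.68 (A over A) to 55.4 (B over B). In limma-voom the log2 fold change was 3.43 ± 0.88 (SE), the widest error of the fitted members.

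The Gzmb spread exceeded what read counting gives. EtOH library A had 5.38 times the Gzmb reads of library B after scaling (93 and 11 reads, exact 95% counting interval 2.87 to 11.2). OHT library B had 4.15 times those of library A (775 and 248 reads, interval 3.60 to 4.81). Of 4099 other transcripts with an OHT mean within 2-fold of that of Gzmb, 0.0244% had as large a ratio between the OHT libraries, with a median ratio of 1.13. Of 1977 transcripts with an EtOH mean within 2-fold, 0.910% had as large a ratio between the EtOH libraries. The same shares for Thy1 were 1.53% of 3994 transcripts with OHT and 49.4% of 2255 with EtOH.

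Cd244 encodes 2B4, a receptor on NK cells that binds CD48 on neighbouring cells. Its normalised reads were 527 and 241 in EtOH libraries A and B and 635 and 375 in OHT libraries A and B. The groups overlapped, with OHT library B below EtOH library A. The means were 384 ± 203 (SD, n = 2) and 505 ± 184 (SD, n = 2), a ratio of 1.31 in the authors' deposited table, and the ratio of an OHT to an EtOH library ran from 0.711 to 2.64. The EtOH libraries differed 2.20-fold in Cd244 reads (exact 95% counting interval 1.86 to 2.60) and the OHT libraries 1.70-fold (1.49 to 1.93). Of 3926 other transcripts with an EtOH mean within 2-fold of that of Cd244, 1.94% had as large a ratio between the EtOH libraries. With OHT the share was 2.95% of 4104. Cd244 thus lay far above the floor of 3 reads in all 4 libraries, and its difference between groups was smaller than the difference within the EtOH group.

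Cd4, the co-receptor of helper T cells that binds MHC class II, had 0 reads in both EtOH libraries, 2 reads in OHT library A and 0 in OHT library B. The deposited means of 1.07 and 1.82 therefore consist mainly of the added read. Against totals of 10096563 EtOH and 10197685 OHT reads, 3 reads correspond to 0.297 and 0.294 RPM, and Cd4 was not detectable above that level in either group. No ratio is given for it.

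**Figure D1:**
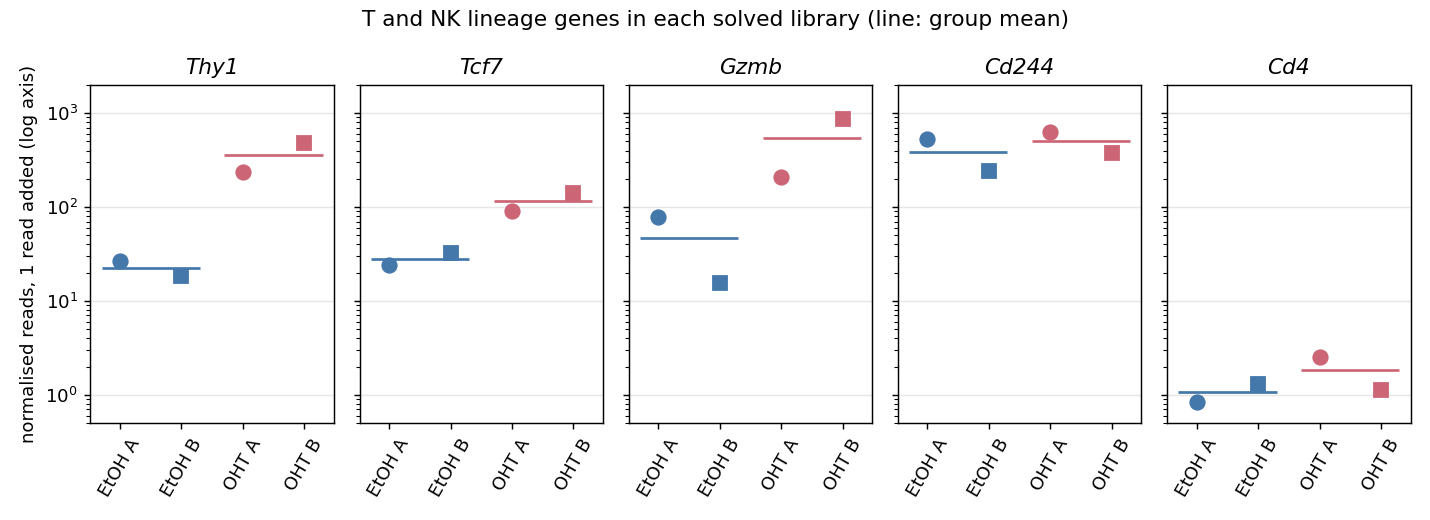
Normalised reads with 1 read added (log axis) of the 5 measured genes in the solved libraries, circles for library A and squares for library B, with lines at the group means (n = 2 each). Thy1, Tcf7 and Gzmb are higher in both OHT libraries than in both EtOH libraries, Cd244 overlaps between groups, and Cd4 stays at 0 to 2 reads.

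Thy1, Tcf7 and Gzmb, 3 of the 5, thus had both OHT libraries above both EtOH libraries, an arrangement found for 26.3% of all transcripts. Thy1 and Tcf7, 2 of the 5, were called by the authors' deposited table (adjusted p under 0.05), which called 5.48% of all transcripts, or 5.97% of symbols. The genes were chosen on this contrast, and nothing is read from these counts. The size of the deposited ratio and the deposited call went different ways: Gzmb at 11.5-fold was not called and Tcf7 at 4.08-fold was. The plot of library pairs and the plot of spread within groups show the values behind this.

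**Figure D2:**
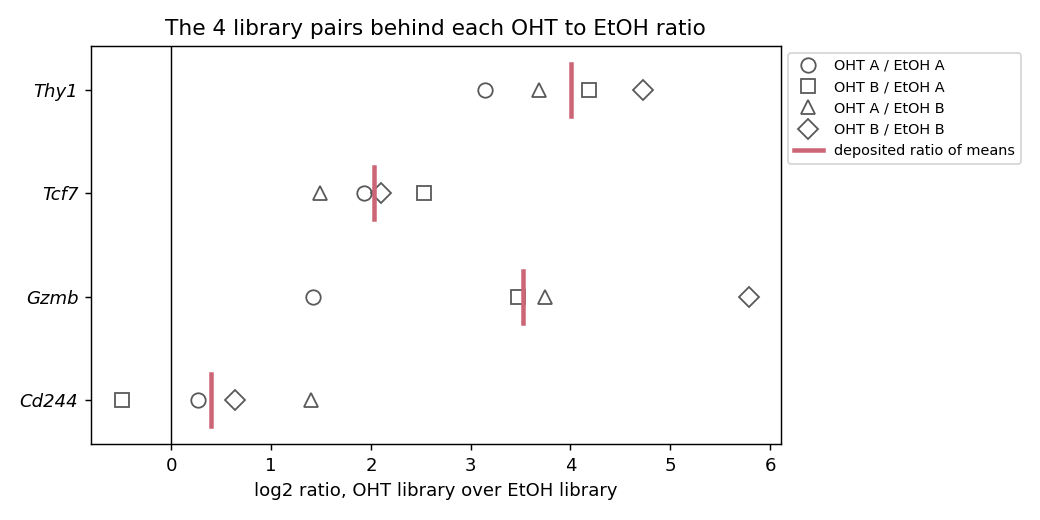
The log2 ratio of each OHT library to each EtOH library (open symbols) for 4 genes, with the deposited log2 ratio of means as a bar. The pairs of Tcf7 run from 1.49 to 2.54 and those of Gzmb from 1.42 to 5.79, while those of Cd244 run from -0.49 to 1.40, across 0.

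**Figure D3:**
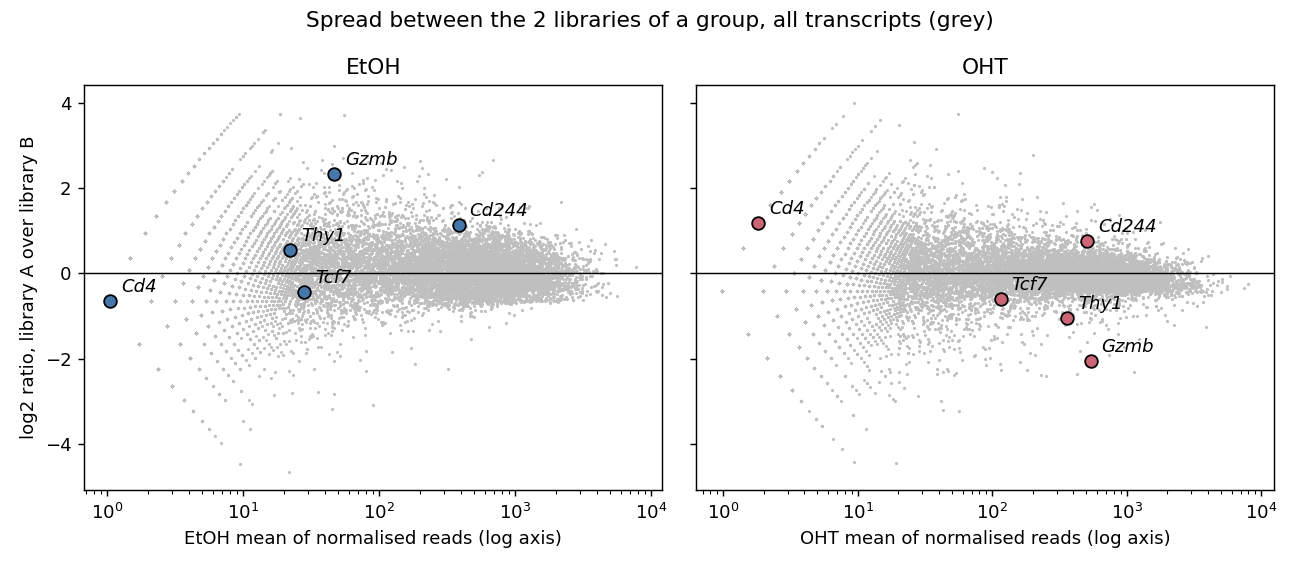
The log2 ratio of library A to library B within each group against the group mean (log axis) for all 18061 transcripts (grey) and the 5 genes (coloured). Gzmb lies at the upper edge of the EtOH cloud and at the lower edge of the OHT cloud, and Cd244 lies above 0 in both.

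The genes that surround the members in their pathways were read from 10 lists with 171 symbols, of which 128 were measured. Of the 128, the authors' deposited table had 5 that rose with OHT (Icos, Notch1, Gata3, Ctsh and Igf2r) and 1 that fell (Lyl1), where 3.62% of transcripts (3.94% of symbols) were called higher and 1.85% (2.02%) lower. Of the 128, 95 had a positive log2 ratio, as did 51.6% of all symbols, and the median of the 128 was 0.46 against 0.04 for all 16545 symbols. Both OHT libraries exceeded both EtOH libraries in 60 of the 128, where 26.3% of all transcripts did so, and lay below them in 18, where 26.5% of all transcripts did. At most 3 reads in each group were found for 17 of the 128. The median of the other 111 was 0.50, also with genes at 0 reads in 1 group set to their bound, against -0.01 for the 14045 symbols above that floor. Limma-voom on the solved reads called 16 higher and 2 lower of the 84 list genes it fitted, where it called 9.72% and 5.49% of its 11338 transcripts. These shares over all symbols and transcripts are the background for each count of calls below, also where they are not repeated.

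The measured chains of the T-cell receptor complex gave few reads, while Cd3e and the co-receptor genes Cd8a and Cd8b1 were not analysed here. Cd3d and Cd3g, chains of the CD3 complex, had 5 and 1 reads with EtOH and 4 and 0 with OHT, over both libraries of a group. Cd247, which encodes the zeta chain, had 0 and 5. These genes, and others given as reads below, were named after their values were seen. Of 11 measured genes of this list, 8 had a positive log2 ratio, as did 51.6% of all symbols, and the median was 0.91. Cd5, Cd7 and Cd2 had 3, 1 and 1 reads with EtOH and 13, 8 and 5 with OHT, none of them called. Cd27 had 2 and 1. Where 3.94% of all symbols were called higher, 1 of the 11 rose, Icos, a costimulatory receptor of activated T cells. The authors' deposited table lists it at 4.62 and 30.7, which is 6.66-fold higher (adjusted p = 0.0394). Its reads were 7 and 1 in the EtOH libraries and 31 and 30 in the OHT libraries, which do not overlap. Cd28, the related costimulatory receptor, had 454 and 90 reads with EtOH and 457 and 488 with OHT, and the authors' deposited table gives its log2 ratio as 0.91 (adjusted p = 0.853). With OHT, Thy1 thus had 278 and 431 reads in libraries where Cd3d, Cd3g and Cd247 had 0 to 3.

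None of 23 genes of the signalling cascade around Lck was called by the authors' deposited table (DESeq), 2 having an unadjusted p under 0.05, and their median log2 ratio was 0.38. The adaptor Lcp2, also used in myeloid cells, was listed at 1203 and 1663 (adjusted p = 0.623), and Csk, the kinase that restrains Src-family kinases, at 1336 and 1287 (adjusted p = 1), both from the authors' deposited table. Zap70, the kinase that acts after Lck, had 0 reads with EtOH and 1 with OHT. Rasgrp1, which links T-cell receptor signals to Ras, had 0 and 18 reads. Taken as exact, the 18 reads are 5.68-fold above a floor of 3 reads over the EtOH group (authors' deposited adjusted p = 0.438).

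Genes of early T-cell development, the setting in which Tcf7 is switched on, had a median log2 ratio of 1.22 over 15 measured genes. Notch1, the receptor that starts the T-cell programme, rose from 1120 to 2603, which the authors' deposited table gives as 2.32-fold (adjusted p = 0.0182), with 1526 and 747 reads in the EtOH libraries and 3597 and 1955 in the OHT libraries. Gata3, a T-cell factor that acts beside TCF-1, rose from 5.27 to 49.6 (9.42-fold, adjusted p = 0.0165, authors' deposited table), with 7 and 2 reads against 76 and 30. Lyl1, a basic helix-loop-helix factor of progenitors, fell from 1484 to 729 (log2 ratio -1.03, adjusted p = 0.0101, authors' deposited table). Limma-voom also called Notch3 (2.41 ± 0.63 SE, adjusted p = 0.0294) and the Notch target Hes1 (2.19 ± 0.63 SE, adjusted p = 0.0419) higher, which the authors' deposited table did not. Nrarp, a Notch-regulated gene of the same list, went the other way, with 198 reads with EtOH and 168 with OHT (log2 ratio -0.31). Both OHT libraries lay below both EtOH libraries for Nrarp, and neither method called it. Of the 15 genes, 10 had a positive log2 ratio. Il7r, the receptor for the T-cell growth factor IL-7, had 310 and 34 reads with EtOH and 236 and 624 with OHT, the same order of libraries as Gzmb.

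None of 12 partners of TCF-1 in beta-catenin signalling was called by the authors' deposited table, 3 having an unadjusted p under 0.05, and the median log2 ratio was 0.66. The corepressor Tle4 was listed at 564 and 477 (adjusted p = 0.960) and the coactivator Pygo2 at 653 and 887 (adjusted p = 0.543), as the authors' deposited table gives them. Of the 8 fitted by limma-voom 1 was called, Ccnd1, which encodes cyclin D1, higher with OHT (2.10 ± 0.34 SE, adjusted p = 0.00457). Among 9 regulators of Cd4 transcription, 1 rose, which was Gata3 again, and the median log2 ratio was 0.03 in the authors' deposited table. Runx3, a repressor of Cd4 in killer T cells, had 1363 and 760 reads with EtOH and 1308 and 956 with OHT, and Zbtb7b, the factor of the helper T-cell fate, 1856 and 897 against 2077 and 1329. Cd4 itself was not detectable in the same libraries.

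Of 19 measured genes of granzymes and cytotoxic granules, 2 rose, where 3.94% of all symbols were called higher, and neither of the 2 is specific to killer cells. In values from the authors' deposited table, the lysosomal protease Ctsh rose from 545 to 1234 (2.26-fold, adjusted p = 0.00146) and Igf2r, a receptor that sorts enzymes to lysosomes and can take up granzyme B, from 418 to 1194 (2.86-fold, adjusted p = 2.74e-05). Gzmc, a granzyme gene next to Gzmb, had 3 and 0 reads with EtOH and 19 and 77 with OHT, which is 30.3 times the reads after scaling (exact 95% counting interval 10.1 to 149). The authors' deposited table did not call it (adjusted p = 0.489). Limma-voom called it higher (4.68 ± 1.20 SE, adjusted p = 0.0278). Prf1, which encodes perforin, the pore protein that granzymes need to enter target cells, had 0 and 10 reads. Taken as exact, the 10 reads are 3.15-fold above a floor of 3 reads over the EtOH group (authors' deposited adjusted p = 0.802). Srgn, the proteoglycan that packs granzymes in granules, had 1462 and 1183 reads with EtOH and 1548 and 1518 with OHT.

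Of 9 measured genes of the SLAM family and its adaptors, none was called by the authors' deposited table (unadjusted p under 0.05 for 1 higher and 1 lower), and the median log2 ratio was 0.62. Cd48, the ligand of Cd244, was listed at 306 and 408 (adjusted p = 0.866) and the family member Cd84 at 753 and 1159 (adjusted p = 0.701), both as the authors' deposited table gives them. Limma-voom called Slamf7 higher (3.18 ± 0.80 SE, adjusted p = 0.0262), with 7 reads against 68, and Slamf9 lower (-2.33 ± 0.54 SE, adjusted p = 0.0189), with 120 reads against 25. The receptor and its ligand were thus both present with EtOH and with OHT.

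Several NK receptors gave few reads, and 10 of the 24 listed genes of NK receptors and adaptors were measured. Of 10 measured genes of NK receptors and their adaptors, 0 were called by the authors' deposited table, 0 had an unadjusted p under 0.05 there, 0 of the 4 fitted were called by limma-voom, and the median log2 ratio was 0.35. Of the 10, 7 had a positive log2 ratio, as did 51.6% of all symbols. The NK receptor Ncr1 had 1 read with EtOH and 0 with OHT, and Klrb1a had 2 and 0. In the other direction, Klrb1b had 0 and 4 reads, Klrb1f 3 and 5, and Itga2 28 and 49. Klra17, a receptor gene outside the list, had 0 and 77. The list's abundant genes are shared with myeloid cells: the adaptor Tyrobp was listed at 831 and 871 and the Fc receptor Fcgr3 at 1082 and 1342, with adjusted p of 1 and 0.912 (authors' deposited table). Of 12 NK and innate lymphoid factors, the authors' deposited table called none (1 with an unadjusted p under 0.05, median log2 ratio 0.57) and lists Ikzf2 at 1366 and 1501 and Zeb2 at 1283 and 1819. Limma-voom called Id2, an inhibitor of helix-loop-helix factors needed for NK cells, higher (1.06 ± 0.28 SE, adjusted p = 0.0303), and Tox2 higher (3.25 ± 0.80 SE, adjusted p = 0.0240), the latter on 2 reads against 22.

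All 12 listed binding partners of the members had a positive log2 ratio (median 0.71), where 51.6% of all symbols did, and none was called by the authors' deposited table, 3 having an unadjusted p under 0.05. The integrin chains Itgb2 and Itgb3, parts of integrins that bind Thy1, were listed at 2670 and 3401 and at 334 and 983, with adjusted p of 0.783 and 0.578 (authors' deposited table). Limma-voom called Itgb3 (1.58 ± 0.46 SE, adjusted p = 0.0437) and the MHC class II genes H2-Aa (3.43 ± 0.92 SE, adjusted p = 0.0337) and H2-Ab1 (2.18 ± 0.56 SE, adjusted p = 0.0273) higher, the latter pair being the ligand of the undetected CD4.

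**Figure D4:**
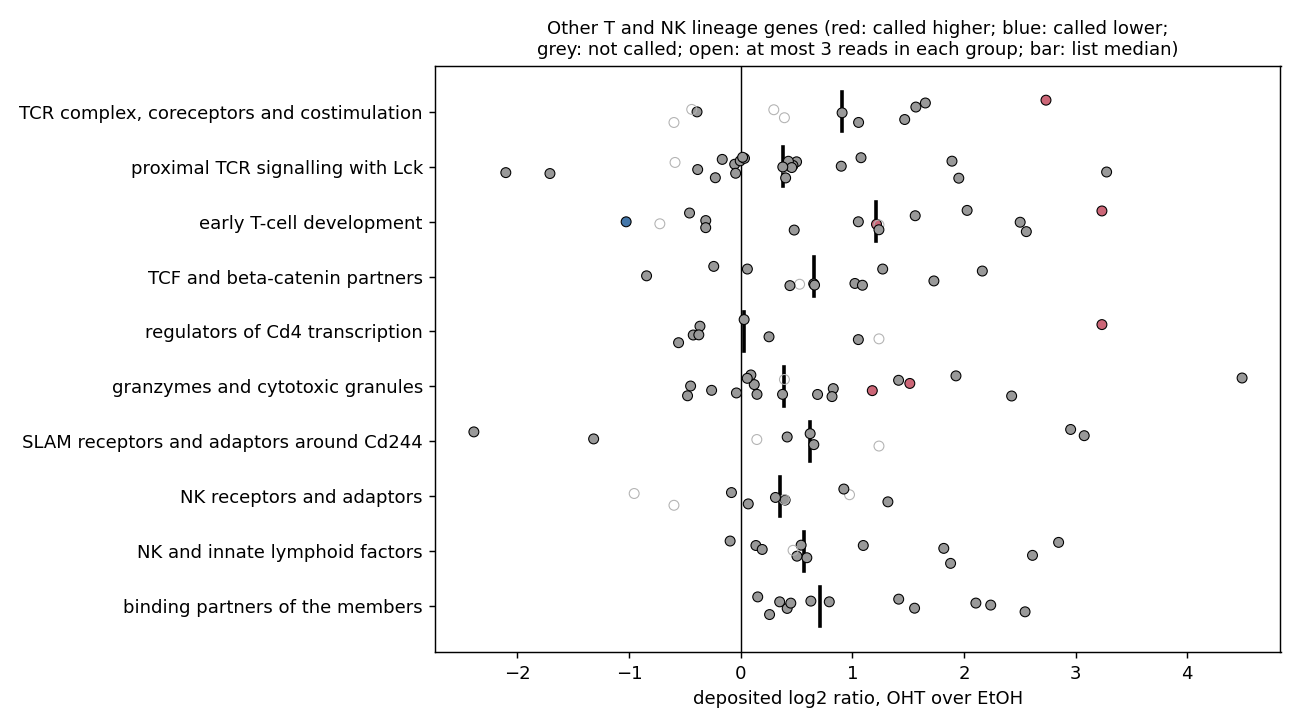
Deposited log2 ratios of OHT to EtOH for the measured genes of 10 lists, each dot a gene and each bar a list median. The called genes are Icos, Notch1, Gata3 (in both of its lists), Ctsh and Igf2r (red) and Lyl1 (blue), and the list of early T-cell development has its median at 1.22.

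Markers of myeloid cells were abundant, as the labelled cell type implies. Summed over 17 measured granulocyte and monocyte markers, normalised reads were 8566 and 8780 in the EtOH libraries and 12141 and 12758 in the OHT libraries. The authors' deposited table called 1 of them higher (Lyz2), where 3.94% of all symbols were called higher. Limma-voom called 4 of the 16 it fitted higher (Csf1r, Lyz1, Lyz2 and Cd68), where it called 9.72% of all its transcripts higher. Within this higher sum 13 of the 17 had a positive log2 ratio. The granulocyte genes Ctsg, Prtn3 and Cebpe had log2 ratios of -0.58, -0.41 and -0.27 and were not called. Mpo, Csf3r and Elane, also granulocyte genes, had 1.16, 0.88 and 0.06 and were not called either. The libraries of a group lay far apart for Mpo, with 22 and 123 reads with EtOH and 418 and 45 with OHT. The highest means of that list in the authors' deposited table were those of the myeloid factor Spi1, at 1353 and 1460, and the macrophage receptor Emr1, at 1259 and 2846. B-cell markers were low, at 63.9 and 116 with EtOH and 202 and 109 with OHT over 9 genes. Of these, 0 were called by the authors' deposited table, 0 had an unadjusted p under 0.05 and limma-voom called 0 of the 1 it fitted. The authors' deposited table lists Cd79b at 83.3 and 137 and Cd79a at 4.91 and 8.53. Fibroblast and stromal markers, which can accompany Thy1, summed to 21.6 and 35.2 with EtOH and 198 and 116 with OHT over 6 genes. Of these, Col1a1 (5.33 to 30.3, adjusted p = 0.0361) and Acta2 (23.2 to 125, adjusted p = 0.0402) rose by the authors' deposited table, as they did by limma-voom, while Pdgfra, Pdgfrb and Fn1 had 0 reads with EtOH and at most 3 with OHT. Col1a2, the partner chain of Col1a1, went the other way, with 3 reads with EtOH and 0 with OHT. Neuronal markers summed to 7.46 and 6.51 with EtOH and 21.8 and 39.1 with OHT over 2 measured genes of 8 listed. In this sum both OHT libraries lay above both EtOH libraries, as for Thy1, an arrangement that 26.3% of all transcripts had. Nefm alone did not have it, with 0 reads with EtOH and 9 and 0 in OHT libraries A and B. Neither gene was called, 0 had an unadjusted p under 0.05, and limma-voom called 0 of the 1 it fitted. The authors' deposited table lists Tubb3 at 8.05 and 27.7 and Nefm at 1.07 and 4.76. The part of stromal and neuronal markers in the Thy1 values was not tested.

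Other marker lists held 8 measured genes of stem and multipotent progenitor cells, with sums of 249 and 58.6 in the EtOH libraries and 278 and 370 in the OHT libraries. All 6 above the floor had the order of libraries described below for Gzmb, as did 29.0% of 14045 symbols above the floor. Some of these orders rest on few reads: Ly6a had 4 and 1 with EtOH and 0 and 1 with OHT, and Kit 4 and 0 against 3 and 5. Of the 8 genes, the authors' deposited table called 1 higher, Procr (43.1 to 180), where 3.94% of all symbols were called higher. It lists Cd34 at 33.0 and 77.3. Limma-voom called 1 of the 4 it fitted higher, also Procr, where it called 9.72% of all its transcripts higher. The 7 plasmacytoid dendritic cell genes summed to 724 and 616 with EtOH and 1489 and 1335 with OHT. Of the 7, the authors' deposited table called 1 higher, Irf8 (215 to 902), and lists Bst2 at 394 and 439. Limma-voom called 1 of the 3 it fitted higher, also Irf8. Siglech, the defining marker of these cells, had 2 reads with EtOH and 0 with OHT. The 7 erythroid and platelet genes summed to 2387 and 1697 with EtOH and 2424 and 3961 with OHT. Of the 7, the authors' deposited table called 2 higher, Epor and Pf4, and limma-voom called the same 2 of the 5 it fitted. The highest means, those of Ppbp (1092 and 1646) and Itga2b (894 and 1234), were not called by the authors' deposited table.

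Mast cell and basophil markers moved between libraries in the same order as Gzmb. All 10 markers above the floor were higher in EtOH library A than in B and higher in OHT library B than in A, the order that Gzmb had, and 29.0% of 14045 symbols above the floor had this order. Some of these orders rest on few reads. Fcer1a had 1 and 0 reads with EtOH and 0 and 4 with OHT, and Kit 4 and 0 against 3 and 5. For Mcpt8 the EtOH libraries were close, at 97.0 and 95.1 normalised reads. Over the 11 measured markers, summed normalised reads were 5859 and 4775 in the EtOH libraries and 4218 and 9094 in the OHT libraries. Of the 11, 0 were called by the authors' deposited table, 0 with an unadjusted p under 0.05. Limma-voom called 1 of the 7 it fitted, Prss34, higher with OHT. The highest means in the authors' deposited table were those of Gata2, at 2169 and 2230, and Cpa3, at 1879 and 1935. Tpsb2, a mast cell tryptase, had 31 and 3 reads with EtOH and 73 and 267 with OHT. The basophil and mast cell protease Prss34 had 11 and 4 against 93 and 375, and Ms4a2, a chain of the IgE receptor, 2 and 0 against 6 and 24. The defining IgE receptor chain Fcer1a had 1 read with EtOH and 4 with OHT, and the mast cell protease Mcpt4 0 and 1. The order of libraries was examined after the data were seen, and the part of these markers in the Gzmb values was not tested.

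Among 7906 symbols with a mean of at least 50, Tpsb2 was also the closest to Gzmb in its pattern over the 4 libraries, at a distance of 0.17 between log2 values centred on each gene's mean. Anpep, a myeloid surface peptidase, and Atp6v0d2, a proton pump subunit of osteoclasts and macrophages, came next at 0.69 and 0.71. Among the closest to Tcf7 were Gdpd1, at 0.19, and Pafah1b3, at 0.27. The closest to Thy1 were Ggt7, Msrb3 and Aebp1, at 0.47 to 0.51, and the closest to Cd244 were Epm2aip1, Lysmd1 and Zc3h12c, at 0.25 to 0.27. A pattern over 4 libraries is a coarse measure, and these distances are a description.

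**Figure D5:**
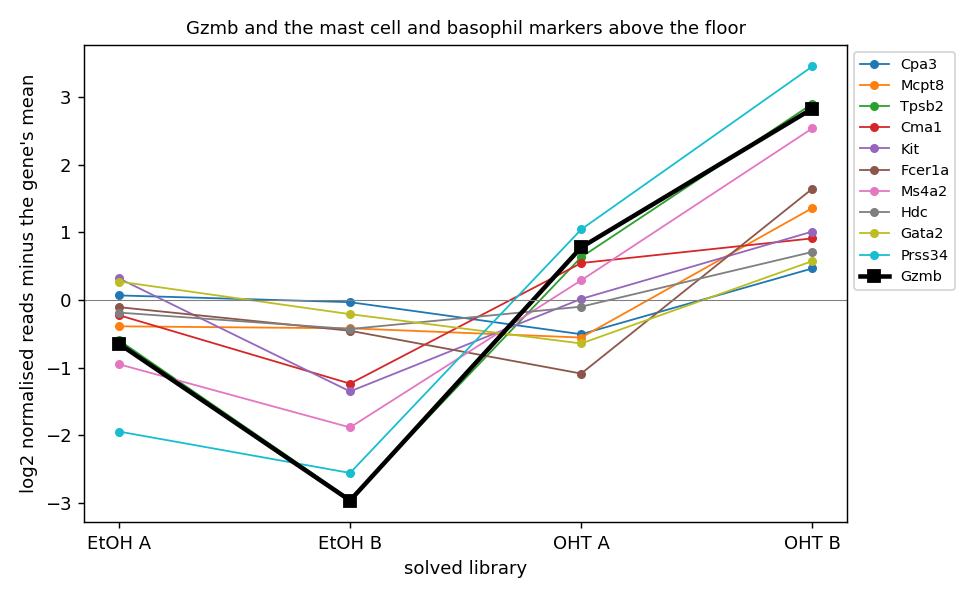
Log2 normalised reads in each solved library, centred on each gene's own mean, for Gzmb (black squares) and the 10 mast cell and basophil markers above 3 reads in a group (circles); lines join the values of one gene. All fall from EtOH library A to B and lie higher in OHT library B than in A, and the Tpsb2 line lies close to that of Gzmb.

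The nearest analysed genes on the chromosome, 4 on each side in GRCm38 order, held at most 1 gene called by the authors' deposited table, and at most 2 called by limma-voom, around each member above the floor. Next to Thy1, 1 of 8 was called higher by the authors' deposited table, the adhesion molecule gene Mcam, 3 genes away (4 reads with EtOH and 214 with OHT, adjusted p = 9.47e-08). The gene directly before Thy1, Pvrl1, an adhesion receptor, had 4 and 57 reads (adjusted p = 0.107, authors' deposited table). None of the 8 neighbours of Tcf7 was called by the authors' deposited table, 0 had an unadjusted p under 0.05, limma-voom called 0 of 5 fitted, and their log2 ratios ran from -0.25 to 1.13. Of the 8 neighbours of Gzmb, among them the granule protease genes Gzmc, Ctsg and Mcpt8, 0 were called by the authors' deposited table and 0 had an unadjusted p under 0.05, while limma-voom called Gzmc. Around Cd244, which lies in a cluster of SLAM genes, 1 of 8 was called higher, the junction protein gene F11r (85.1 to 394, adjusted p = 1.29e-07, authors' deposited table), and the SLAM genes Ly9, Slamf7, Cd48 and Slamf1 were not. Limma-voom called 2 of the 6 it fitted around Cd244, F11r and Slamf7, and 2 of the 6 around Thy1, Mcam and Pvrl1, all higher.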

How the data were processed

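RNA-seq was made from 2 EtOH and 2 OHT samples with the TruSeq RNA kit named in the labels' protocols, a kit that does not mark strand. TopHat, DESeq and mm9 appear in the submitters' processing notes; the counting program is not given in the sources used here. The authors deposited, per the file headers, group means of normalised reads (signal), their ratio (fold), its log2, and a p-value with an adjusted p-value, per RefSeq transcript. The ratio equalled the OHT over the EtOH mean, and the adjusted p a Benjamini-Hochberg adjustment to within 2.63e-06. Depth per library was 3841243 to 6255320 reads.

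Means were solved into whole reads of 2 libraries with 1 read added (unique for all 18061 transcripts in both groups, whereas 0.0997% and 0.0941% of EtOH and OHT means moved by up to 0.1% had a solution). The resulting reads were modelled by group in limma 3.58.1 voom (R 4.3.3), for transcripts with at least 10 reads in 2 libraries, with Benjamini-Hochberg adjustment; 2 residual degrees of freedom remain. The solver and fit were tested on simulated data. Calls have an adjusted p under 0.05 in the deposited table. Where a symbol has several transcripts the highest mean was used, and reads of antisense or near-identical genes (the granzyme cluster) may not be separable. Counting intervals (exact, 95%) and floors cover counting error only, and folds against a floor of 3 reads take the reads of the other group as exact. Members and lists were chosen with earlier results of these data known. Named genes are the members, up to 4 calls per lineage list by adjusted p (otherwise the 2 with the highest mean), 2 markers per cell type with the highest mean, and 3 closest patterns per member; limma-voom calls, genes given as reads and chromosomal neighbours were added after the data were seen. Gene order and promoter windows come from RefSeq on GRCm38.p6, and 16332 of 16545 symbols matched. Some genes that these rules name are not reported here.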

Additional observations from a re-analysis of the deposited data

How the results depend on the processing

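Of 82 alternatives 64 left the value on the same side or within the spread, 16 moved it and 2 reversed it. The log2 ratio of Cd244 (0.39) was -0.063 when EtOH library B was left out and -0.034 when OHT library A was, in a range up to 1.07 over single libraries left out. Leaving out 1 library gave 3.39 to 4.43 for Thy1, 1.69 to 2.30 for Tcf7 and 2.16 to 5.10 for Gzmb. For Gzmb the 5.10 came from leaving out EtOH library A, the 2.16 from leaving out OHT library B, and leaving out the others gave 2.79 (EtOH B) and 4.21 (OHT A). Of the other list genes, 2 rose and 0 fell at an adjusted p under 0.01, 9 and 2 at 0.1, and 16 and 2 by limma-voom. Limma-voom calls among them were 28 higher with no filter and 6 with at least 50 reads, and 7 to 31 higher and 1 to 2 lower with 1 library left out, the 31 without EtOH library A and the 7 without EtOH library B. Icos, Notch1, Gata3, Ctsh and Igf2r stayed called in each of the 4 fits with a library left out, and Lyl1 was lost without OHT library A (adjusted p = 0.139). Icos and Gata3 were not tested under the filter of at least 50 reads in 2 libraries, since at most 1 of their libraries had that many. Over all transcripts limma-voom called 795 to 1597 higher and 133 to 1075 lower with 1 library left out (133 without OHT library A, 372 with OHT B left out and 1075 with EtOH A left out, against 623). The causes were not tested. No paired analysis was possible because the solved libraries carry no replicate numbers. Where a group is left with 1 library, that library is assumed to vary like the others.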

Other observations

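Some further genes of lymphoid or antigen-presenting cells lay outside the lists and were chosen after their values were seen. Klra17, of the Ly49 receptor family, had 0 reads in both EtOH libraries and 62 and 15 in the OHT libraries. Taken as exact, its OHT reads are 24.3-fold above a floor of 3 reads over the EtOH group. The authors' deposited table did not call it (adjusted p = 0.106). Klrg2 rose from 46.8 to 157, which the authors' deposited table gives as 3.35-fold (adjusted p = 0.00238), with 71 and 25 reads with EtOH and 161 and 158 with OHT. Cd80 and Cd86, the ligands of CD28 on antigen-presenting cells, rose 7.03-fold (adjusted p = 0.000115) and 4.25-fold (adjusted p = 0.00203) in the authors' deposited table. Both OHT libraries exceeded both EtOH libraries for Cd80 and for Cd86. Of the list genes not named above, the factor Prdm1, which guides effector lymphocytes and monocytes, had 5 and 3 reads with EtOH and 69 and 12 with OHT, which is 9.58 times the reads after scaling (exact 95% counting interval 4.64 to 22.9). The SLAM receptor Slamf6 had 8 and 0 against 64 and 11, 8.87 times the reads after scaling (4.28 to 21.3). The authors' deposited table called neither Prdm1 (adjusted p = 0.539) nor Slamf6 (adjusted p = 0.595).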
